A study of Mus musculus with 3 samples.

Results

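The testis-specific serine kinase genes Tssk1, Tssk2, Tssk3, Tssk4, Tssk5 and Tssk6 and the gene of their substrate, Tsks, were followed on arrays of mouse spermatids, the haploid male germ cells. The 7 genes were taken by their symbol in the platform annotation from 19938 named genes. The data were 3 arrays (GeneChip Mouse Gene 1.0 ST, Affymetrix) of total RNA, labelled as spermatids from testes of wild type BALB/c males aged 30 days, with no treatment and no second group. Per the labels' protocols the cells were a strained suspension of homogenised testis tubules, and no step that sorts a cell type is described. The labels do not tell whether each replicate was a separate animal, so errors measure the spread between these arrays, which may be technical. Levels are log2 values from Robust Multichip Average (RMA), errors are SDs over the 3 arrays, and the number of arrays limits the precision.

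The TSSK kinases are serine/threonine kinases that belong, with AMPK and its relatives, to the CAMK group of protein kinases. They are made after meiosis and act while round spermatids reshape into sperm, and loss of Tssk1 and Tssk2 together, of Tssk3 or of Tssk6 makes male mice sterile. TSKS, which has no kinase domain, is phosphorylated by TSSK1 and TSSK2 and lies with them near the chromatoid body, an RNA-rich granule of spermatids.

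Tssk1 and Tssk2 are neighbouring genes on chromosome 16 whose products work together, and their promoters are shown beside that of Tssk6, the member with the lowest level. Each RefSeq window (assembly GRCm38.p6, plus strand) runs from 250 bases before the gene's start to 50 bases after it. Capitals in the first pair mark TGACTTCA on either strand and the longest run of bases that their alignment shares. Capitals in the Tssk6 window mark TGACG, the core of the cAMP response element, and AACAAT, a SOX site, here on the opposite strand. The windows are at chr16:17893953-17894252 for Tssk1, chr16:17898387-17898686 for Tssk2 and chr8:69901934-69902233 for Tssk6.
Tssk1: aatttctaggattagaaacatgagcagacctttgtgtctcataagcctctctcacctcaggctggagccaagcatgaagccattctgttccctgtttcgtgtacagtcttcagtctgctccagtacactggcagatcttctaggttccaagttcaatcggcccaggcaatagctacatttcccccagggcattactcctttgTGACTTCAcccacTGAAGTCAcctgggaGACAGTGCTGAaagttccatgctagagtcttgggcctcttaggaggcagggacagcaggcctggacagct
Tssk2: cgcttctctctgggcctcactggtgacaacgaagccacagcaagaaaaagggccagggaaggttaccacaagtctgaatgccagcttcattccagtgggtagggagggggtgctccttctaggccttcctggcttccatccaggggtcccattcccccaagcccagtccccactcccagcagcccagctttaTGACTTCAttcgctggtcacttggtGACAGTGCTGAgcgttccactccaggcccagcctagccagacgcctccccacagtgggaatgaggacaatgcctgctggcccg
Tssk6: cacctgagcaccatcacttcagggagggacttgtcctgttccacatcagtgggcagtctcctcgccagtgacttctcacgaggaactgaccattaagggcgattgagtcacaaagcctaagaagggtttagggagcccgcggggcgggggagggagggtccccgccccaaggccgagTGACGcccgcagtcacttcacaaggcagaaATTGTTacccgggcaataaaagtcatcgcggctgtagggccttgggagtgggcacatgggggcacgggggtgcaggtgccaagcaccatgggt

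The best local alignment of the Tssk1 and Tssk2 windows had 41 identical of 52 columns (78.8%) and ended 2 bases before the start of Tssk1. Its longest identical run was the 11 bases GACAGTGCTGA, found in 6 of 32851 RefSeq windows (0.0183%), these included. Both windows also held TGACTTCA, which 1.52% of all windows hold on either strand. It began 48 bases before the start in Tssk1 and 58 bases before it in Tssk2, and Tssk1 held a second match on the opposite strand 35 bases before the start. Both the run and TGACTTCA were chosen after the sequences were seen, so their presence in both windows is no test. Of the 15 pairs among the 6 members with a window, the pair of Tssk1 and Tssk2 had the highest alignment score, 46.0, and the next, Tssk2 with Tssk4, had 28.0. The whole cAMP response element TGACGTCA, the site of CREM and CREB factors, was in none of the 6 member windows and in 1.79% of all windows. Its core TGACG was in the Tssk6 window alone among the 6, and in 20.8% of all windows, and AACAAT likewise in that window alone and in 10.7% of all. The X-box core GTTGCC and the TATA box TATAAA were in none of the 6, against 12.5% and 13.6% of all windows. All motifs were searched on both strands, and TGACG also lies within TGACGTCA. The Tssk5 promoter was not used here.

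With no second group, a level could be set only against genes not expected in testis. For this, 211 genes of vomeronasal receptors and hair keratin associated proteins served as background genes, with a median of 4.77, and their 95th percentile of 7.98 was taken as the background level. A one-sided limma test, adjusted by Benjamini-Hochberg over all named genes, called 6 of the 7 members above it and 36.6% of all named genes. The median level of the 7 members was 10.35, beside 7.45 for all named genes. The means of the members spanned 4.36 on the log2 scale, whereas no member differed between arrays by more than 0.173.

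**Figure D1:**
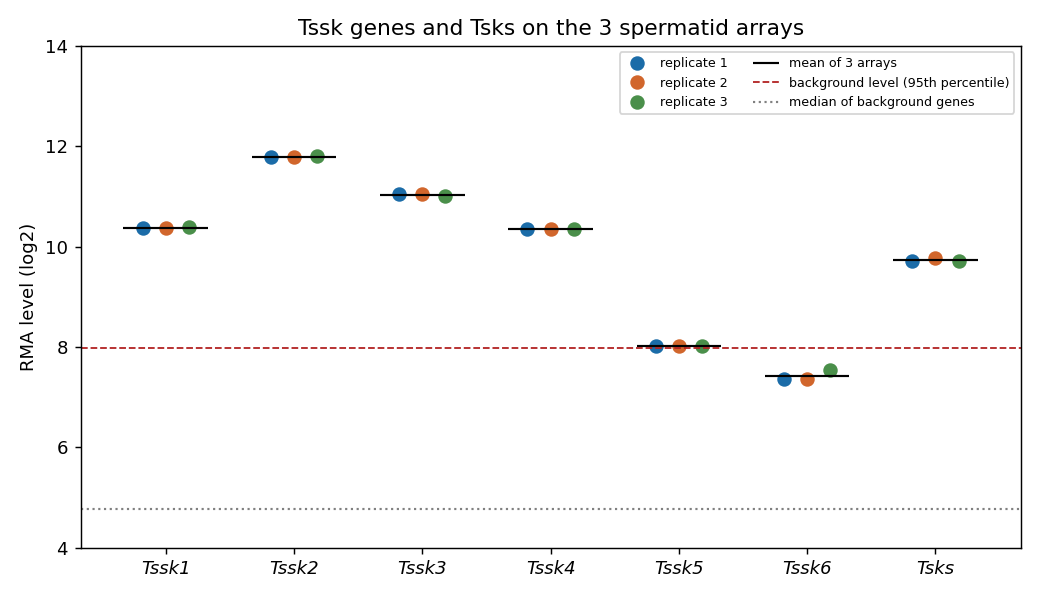
RMA level (log2) of each gene on each of the 3 arrays, with the mean as a bar, the background level of 7.98 as a dashed line and the median of the background genes, 4.77, as a dotted line. The arrays of Tssk1, Tssk2, Tssk3, Tssk4 and Tsks all lie above the dashed line, those of Tssk5 lie on it at 8.02, and those of Tssk6 lie below it.

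Tssk2 had a level of 11.79, 11.79 and 11.81 in replicates 1, 2 and 3. It had the highest mean of the members, 11.79 ± 0.01 (n = 3), which is 3.81 above the background level (adjusted p = 2.08e-06, limma). Of the named genes 98.7% had a lower mean. Tssk1 had a level of 10.37, 10.37 and 10.40, a mean of 10.38 ± 0.02 that lay 2.40 above the background level (adjusted p = 1.06e-05, limma) and above 91.1% of named genes. For both genes replicates 1 and 2 were equal and replicate 3 was the highest, by 0.021 in Tssk2 and 0.028 in Tssk1. Each has 1 probe set that names no other gene, so neither value comes from a probe set annotated to both. Probe sets of different genes bind their targets unequally well, so the order of members describes these probe sets and not the relative amounts of RNA.

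Tssk3, whose product is activated by the kinase PDPK1, had a level of 11.04, 11.04 and 11.00 in replicates 1, 2 and 3. Here replicate 3 was the lowest, by 0.033. The mean of 11.02 ± 0.02 (n = 3) lay 3.04 above the background level (adjusted p = 9e-06, limma) and above 95.5% of named genes. Tssk4, a kinase of the outer dense fibre protein ODF2 in the sperm tail, had a level of 10.35 on each of the 3 arrays. Its arrays differed by only 0.006, and 3.3% of the genes whose values were not all equal had a smaller SD. Its mean lay 2.37 above the background level (adjusted p = 4.03e-07, limma) and above 90.9% of named genes.

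Tsks, the substrate gene, had a level of 9.72, 9.77 and 9.72 in replicates 1, 2 and 3. Replicate 2 was the highest, and replicates 1 and 3 were equal. The mean of 9.74 ± 0.03 (n = 3) lay 1.75 above the background level (adjusted p = 5.4e-05, limma) and above 85.5% of named genes. Among the 211 background genes 1 had a higher mean than Tsks, and none had a higher mean than Tssk4.

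Tssk5 had a level of 8.02 on every array, with values equal to the last digit deposited. This was 0.03 above the background level, and 11 of the 211 background genes were higher. It was called above background (adjusted p = 1.92e-07, limma), but with an SD of 0 the test asks only whether the level exceeds 7.98. The call ended with each array centred on its median (adjusted p = 0.0817, limma), with the 99th percentile of the background genes and with probe sets of several genes added. Of the named genes 62.4% had a lower mean.

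Tssk6, also known as Sstk, had a level of 7.37, 7.37 and 7.55 in replicates 1, 2 and 3. All 3 arrays lay below the background level, and replicate 3 was the highest, by 0.173 or 1.13-fold on the linear scale. The mean of 7.43 ± 0.10 (n = 3) differed from the background level by -0.55 and was not called (adjusted p = 1.0, limma). It was 2.66 above the median of the background genes, 15 of which were higher, so the gene is not shown to be absent. With the background level taken from olfactory receptor genes, 7.18, Tssk6 was called too (adjusted p = 0.0318, limma). Of the named genes 49.7% had a lower mean, which puts Tssk6 at the middle of them. Tssk6 has 1 probe set that names no other gene. In bulk RNA such as this, fewer cells that express a gene, less RNA per cell and weaker probe set binding cannot be told apart.

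**Figure D2:**
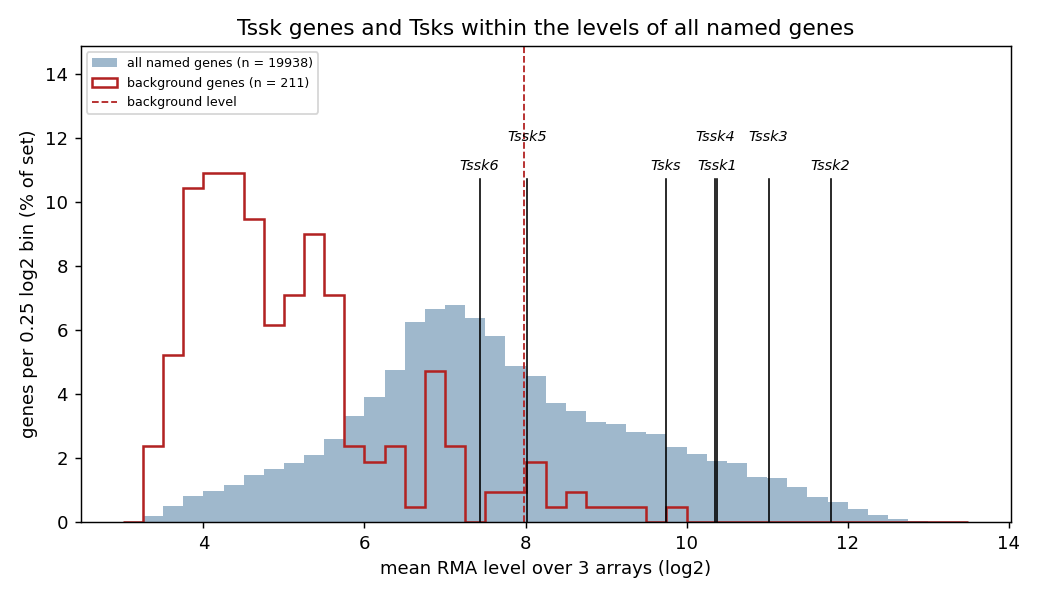
Histograms of the mean RMA level (log2) over 3 arrays, as the percent of each set in bins of 0.25, for all 19938 named genes (filled) and the 211 background genes (red outline), with a black line for each of the 7 genes. Tssk2, Tssk3, Tssk1 and Tssk4 lie in the upper tail of the named genes, and Tssk6 lies near their middle.

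How many members were called depended on the background level and, for Tssk5, on whether the arrays were centred. It was 5 of 7 at the 99th percentile of the background genes (level 9.16), where 19.3% of all named genes were called, and 7 of 7 with the olfactory receptor genes, where 55.0% were. It was 5 of 7 with probe sets of several genes added, against 30.7% of all genes. With centred arrays it was also 5 of 7, against 36.8%, although the level stayed at 7.98. Tssk1, Tssk2, Tssk3, Tssk4 and Tsks were called in each of these. Above the 90th percentile of the named genes, a level of 10.24, stood 4 of the 7 members, namely Tssk1, Tssk2, Tssk3 and Tssk4.

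The members differed between arrays by at most 0.173, and not in the same direction. Replicates 1 and 2 were equal to the last digit for 5 of 7 members, and replicates 1 and 3 for 3 of 7, Tssk5 being counted in both. Over all 35556 probe sets, 46.6% were equal in replicates 1 and 2 and 51.4% in replicates 1 and 3. Tssk1, Tssk2 and Tssk6 were highest in replicate 3, Tssk3 was lowest there, and Tssk4 and Tsks were highest in replicate 2. The SD of Tssk6 exceeded that of 74.6% of the genes whose values were not all equal, and the other members' SDs exceeded at most 27.9% of them. Over all named genes, tied ones included, the median SD was 0.0075, and of the members only Tssk4 and Tssk5 lay below it. Of the named genes 46.0% had equal values on all 3 arrays, for a reason that the files do not give. The SDs and adjusted p-values rest on these partly equal columns, and an SD near 0 does not mean an absence of error.

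**Figure D3:**
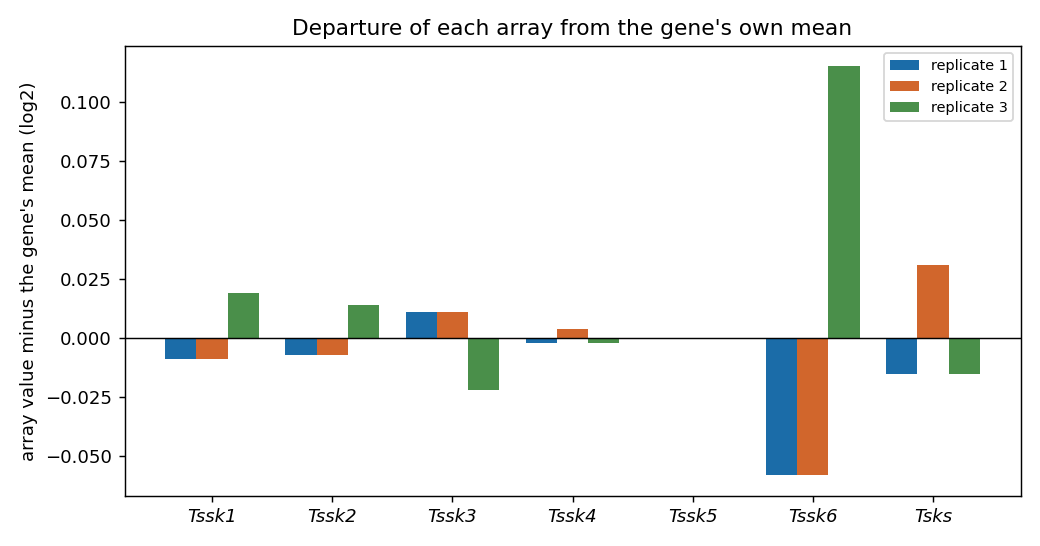
Each array's value minus the gene's own mean over the 3 arrays (log2), with 1 bar per array. Tssk6 departs most, by 0.115 in replicate 3, Tssk5 does not depart, and the bars of the other members lie within 0.031 of 0.

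Of the listed genes whose proteins work with the kinases, all 10 with their own probe set, Tsks left aside, were above background. Their median was 11.41, beside 7.45 for all named genes, of which 36.6% were called. Among chaperones, the co-chaperone gene Tsacc, whose product binds TSSK6, was at 11.45 ± 0.0027 (n = 3). Hsp90aa1, a gene of the HSP90 chaperone that keeps TSSK kinases active, was at 12.61 ± 0.12, and the HSP70 genes Hspa2 and Hspa8 were at 11.67 ± 0.08 and 11.13 ± 0.12. Hsp90ab1 had no probe set of its own. Tsacc thus lay above the background level of 7.98 and Tssk6 under it, although Tssk6 lay 0.25 above the level taken from olfactory receptor genes. The values of these 2 probe sets do not give the relative amounts of the RNAs.

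Pdpk1, the gene of the kinase upstream of TSSK3, was at 11.36 with equal values on all arrays. Ppp1cc, which encodes the protein phosphatase that binds TSKS, was at 12.11 ± 0.07 (n = 3). Of the genes of reported substrates, Odf2 was at 12.46 ± 0.05, Spag16, an axoneme gene whose product binds TSSK2, at 9.82 ± 0.11, and Creb1, a transcription factor gene, at 9.52 ± 0.04. H2ax, the histone variant whose phosphorylation in spermatids needs TSSK6, was lowest at 8.32 with equal values. The chromatoid body list was above background in 8 of 8 members, beside 36.6% of all named genes, with a median of 11.24, beside 7.45. Mael at 12.36 ± 0.09 and the RNA helicase gene Ddx4 at 12.01 ± 0.13 were highest. Piwil1 at 10.12 ± 0.01 and Piwil2 at 10.00 were lowest.

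Relatives of the TSSK kinases outside the family were called at about the share of all named genes. Of 17 AMPK-related kinase genes 6 were above background, beside 36.6% of all named genes, and their median was 7.67, beside 7.45. The highest were Sik3 at 9.55 ± 0.0032 and Mark3 at 9.40 ± 0.07 (n = 3), and the lowest Nuak2 at 6.55 and Nuak1 at 6.13, both with equal values. All 12 measured members of a list of other kinases studied in male germ cells were above background, with a median of 10.12. Stk33 at 11.88 ± 0.03 and the casein kinase gene Csnk2a2 at 11.49 were highest, and Gsk3a at 9.51 ± 0.01 and Cdk16 at 9.12 ± 0.04 lowest. Among the 6 TSSK genes themselves 5 were called, with a median of 10.36. The difference between the lists was not tested.

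**Figure D4:**
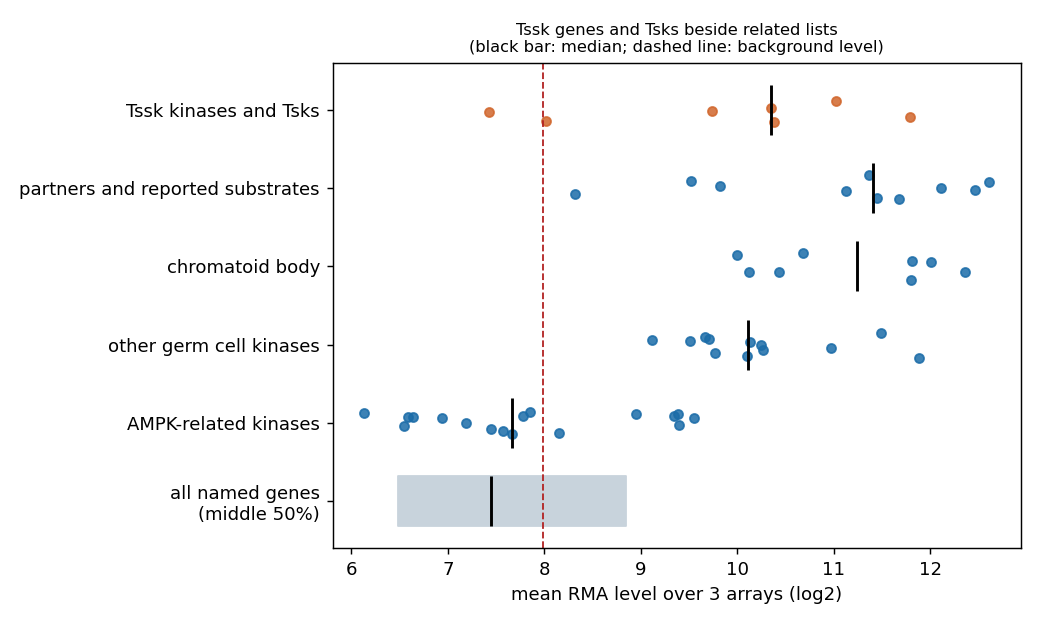
Mean RMA level (log2) over 3 arrays of each gene in 5 lists, with list medians as black bars, and the middle 50% of all named genes as a grey band. The TSSK genes and Tsks spread from 7.43 to 11.79, the germ cell kinases lie between 9.12 and 11.88, and most AMPK-related kinases lie left of the background level.

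The genes next to the members were looked at because several lie close together or overlap in the RefSeq gene table. Of 12 neighbours outside the family 11 were measured, 7 were above background, beside 36.6% of all named genes, and their median was 8.50, beside 7.45. Tssk1 and Tssk2, at 10.38 and 11.79, lie between Dgcr2 at 8.88 and Ess2 at 8.31, both neighbours with equal values on all arrays. Tssk4, at 10.35, overlaps Tm9sf1 at 7.78 and is followed by Mdp1 at 6.72, neither called. Tssk3, at 11.02, follows Bsdc1 at 11.04 ± 0.04 (n = 3) and overlaps Fam229a, which had no probe set of its own. Tsks, at 9.74, overlaps Ap2a1 at 8.96 and precedes Cpt1c at 8.50.

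Tssk6, at 7.43, overlaps Ndufa13, a gene of respiratory complex I, at 9.38 ± 0.01 (n = 3), and precedes Gatad2a at 8.80 ± 0.03, both above background. Tssk5, at 8.02, lies between Hgh1 at 7.19 ± 0.01 and Mroh1 at 7.97 ± 0.02, neither called. Where genes overlap, part of a level may come from the other transcript, and probe positions were not used here.

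**Figure D5:**
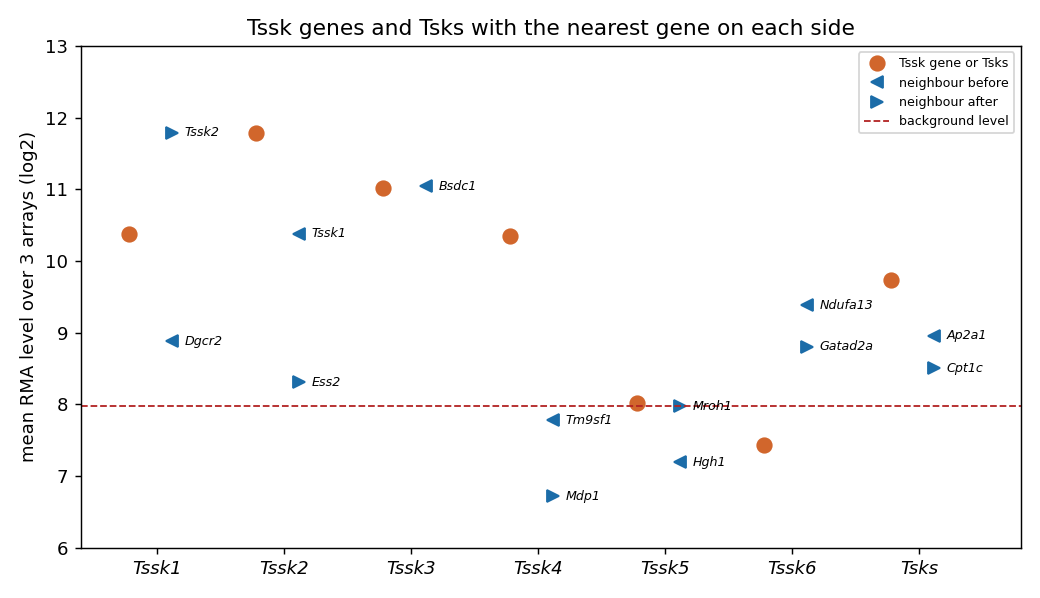
Mean RMA level (log2) over 3 arrays of each of the 7 genes (circles) and of the nearest gene before and after it on the chromosome (triangles), with the background level dashed. Tssk2, Tssk4, Tssk5 and Tsks each lie above both of their neighbours, Tssk5 by only 0.04 over Mroh1. Tssk6 lies below both of its neighbours, and Tssk3 lies at the level of Bsdc1.

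Markers of spermatids, and also of spermatocytes and Leydig cells, were above background, as were most measured Sertoli cell markers. All 6 round spermatid markers, from Tex36 at 9.30 ± 0.15 (n = 3) and Spaca7 at 10.24 ± 0.05 to Acrv1 at 12.07 ± 0.02 and Spata16 at 12.29 ± 0.01, and all 8 elongating spermatid markers (median 12.49) were above background. So were all 6 pachytene spermatocyte markers (median 12.23), all 5 measured Leydig cell markers (10.39) and 5 of 7 Sertoli cell markers (8.47). Of the called Sertoli cell markers, Gata4 lay at 8.0 with an SD of 0.0, close to the background level of 7.98. Its call, like that of Tssk5, asks only whether the level exceeds 7.98. Spermatogonia markers were called in 3 of 8, peritubular and endothelial markers in 2 of 5 and blood and immune markers in 2 of 5, shares near the 36.6% of all named genes. Of genes of other tissues 0 of 8 were called by limma's adjusted test and 0 at an unadjusted p under 0.05. The mean of a marker list moved between arrays by at most 0.164, in the pachytene list from 11.80 to 11.97. The share of other cells in the members' levels was not tested.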

How the data were processed

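The authors deposited a log2 level for each probe set and array. Per the series' design text they were made by RMA with Affymetrix Power Tools and mm9-based annotation, a software version being not given in the sources used here. All 3 columns were used. Their medians were 7.17, 7.20 and 7.17, and the values were not centred. The platform annotation named 1 gene for 21789 of 35556 probe sets, several for 1621 and none for 12146. Entrez identifiers gave current symbols from GRCm38.p6 for 21698 of these. Where several probe sets named a single gene, their median was taken.

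Each gene's mean was tested against the background level in limma 3.58.1 (R 4.3.3) with an intercept model, one-sided, Benjamini-Hochberg at 0.05. Values were equal on all arrays for 9173 genes (46.0%), and the estimated variance prior had 0.267 degrees of freedom. The test was also run on simulated data. Their SDs were drawn only from genes whose values were not all equal, so that run does not bear on genes with tied values. Promoter windows were aligned with Biopython 1.88.

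The text names all members, every measured partner gene, the 2 highest and 2 lowest genes of each other list, and each member's neighbours. Marker lists other than that of round spermatids are given by counts, some with medians, and only Gata4 is named from them. The members and lists were chosen with earlier results of these data known. A planned list of kinases found by protein motif was not used here.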

Additional observations from a re-analysis of the deposited data

How the results depend on the processing

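Tssk1, Tssk2, Tssk3, Tssk4 and Tsks were above background under all 11 alternatives, from 0.57 to 4.61 above the level. Adjusted p was at most 0.0115 (limma), apart from the alternative that asked for a level above on every array, which had no test. Tssk5 turned to -1.15 at the 99th percentile and to -0.35 with probe sets of several genes added, and stayed at 0.03 but uncalled with centred arrays (adjusted p = 0.0817, limma). Tssk6 turned to 0.25 with olfactory receptor genes as background. Without the 4 pseudogenes among the background genes, an alternative chosen after seeing the data, the level was 7.64, and 6 members and 8701 genes in all (43.6%) were called. The count of all genes above background was 7295, and 3847 at the 99th percentile and 10958 with olfactory receptor genes, where the level itself moves the count. Leaving out each replicate in turn kept 6 members called, with 6662 to 7090 genes in all. Without scanner files, signal over each probe's own background was not part of the work. No paired analysis was possible because the samples form 1 group.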

Other observations

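The member promoter windows differed in base composition. G and C made up 60.7% of the windows of Tssk6 and Tsks, 59.7% of that of Tssk2, 59.3% of that of Tssk3, 50.7% of that of Tssk1 and 43.3% of that of Tssk4, beside a median of 52.7% over all windows. The Tssk6 window held 14 CG dinucleotides and the Tssk3 window 10, while Tssk2 had 6, Tsks 5 and Tssk1 and Tssk4 2 each, beside a median of 7 over all windows.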
